A study of Mus musculus with 36 samples.

Results

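The genes described here are families chosen by symbol, many of whose products build or serve the cilium. They are axonemal dynein heavy chains, axonemal dynein intermediate and light intermediate chains, tektins, the radial spoke head, intraflagellar transport (IFT) proteins and Bardet-Biedl (Bbs) proteins. The others are sperm associated antigens (Spag), which share a name rather than a function, tectonics, RFX transcription factors and the kinesin-II motor. Members were taken by gene symbol from the whole expression array, which matched 57 genes (115 probes) out of 30869 symbols (45281 probes). A member was kept where at least 1 probe was detected above background (detection p under 0.01) on at least 1 array, which left 41 genes (74 probes) of 15556 kept symbols (21712 probes).

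The other 41 matched probes were detected on no array, and 16 genes had no other probe. These genes were Dnahc1, Dnahc3, Dnahc5, Dnahc6, Dnahc10, Dnahc17, Dnaic2, Tekt3, Tekt5, Rfx3, Rfx5, Rfx7, Spag4l, Spag11, Spag16 and Spag17.

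A cilium is a microtubule-based projection whose core, the axoneme, is assembled by intraflagellar transport: kinesin-II carries cargo towards the tip, and the BBSome and the transition zone sort what enters the ciliary membrane. Many motile cilia add dynein arms, radial spokes and tektins to that core. Genes for these parts are known targets of Foxj1 and of RFX factors, which bind a promoter motif called the X-box. Cells on the ventral surface of the mouse node carry rotating cilia whose leftward fluid flow is known to help set left-right asymmetry. Which of these parts the node cilia hold was not measured here, since only RNA was.

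RNA was measured on 36 Illumina arrays, each made from a pool of 6 to 74 pieces of 1 region, all dissected from wild-type embryos of the MF1 strain. At E8.5 (2 to 5 somites) the regions were RN, the rostral part of the node (2 arrays), NSB, where the node meets the streak (3 arrays), CLE, epiblast lateral to the streak (3 arrays), and St1 and St5, anterior and posterior streak (2 arrays each). From the tail bud came the chordoneural hinge (CNH) at E9.5 (22 to 25 somites, 2 arrays), E10.5 (32 to 35 somites, 2), E11.5 (40 to 45 somites, 3), E12.5 (50 to 55 somites, 2) and E13.5 (60 to 63 somites, 2). Tissue just posterior to the hinge (P-CNH) was taken at E9.5, E10.5 and E11.5, with 2 arrays each. Headfold embryos of E7.5 gave the regions named A (3 arrays), P (2) and PP (2). RN and NSB together are called the node regions below (5 arrays), CLE, St1 and St5 the other E8.5 regions (7), and all CNH and P-CNH groups the tail bud (17).

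Arrays fell into 3 batches of 12. The 4 arrays of RN and of NSB replicates 1 and 2 were in batch 1 with all St1, St5 and E10.5 arrays, whereas NSB replicate 3 was in batch 3, and the CLE arrays were in batches 2 and 3. Between 13147 and 16220 probes were detected on the node arrays (median 15846), between 11062 and 16256 on the other E8.5 arrays (median 15481) and between 10814 and 16024 on the tail bud arrays (median 14944).

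Known markers matched the labels of the node regions in part. Of 6 node and notochord markers, Foxa2, Shh, Noto and Chrd were higher in the node regions than in the other E8.5 regions, with log2 differences of 2.93, 4.87, 3.61 and 3.45, though each was undetected on some of the other E8.5 arrays. T and Foxj1 were not called there. Streak markers remained well detected in the NSB, which borders the streak, so the pools were not node tissue alone: the summed intensity of 5 streak markers (the brightest being Wnt3a) was 17473, 18170 and 18114 on NSB replicates 1 to 3 and 3812 and 4076 on RN replicates 1 and 2.

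Of the 74 member probes, 6 passed the filter through node arrays only and can add to no count but that of the node, so they are left out here. Out of the other 68, 56, 58 and 52 were detected on NSB replicates 1 to 3, and 58 on each RN replicate. The other E8.5 arrays had 40 to 56 (median 48), the tail bud arrays 38 to 50 (median 45) and the E7.5 arrays 44 to 52 (median 49). Only NSB replicate 2 and the RN arrays stood above every array outside the node regions, since NSB replicate 1 equalled the highest other E8.5 array and NSB replicate 3 was below it.

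**Figure D1:**
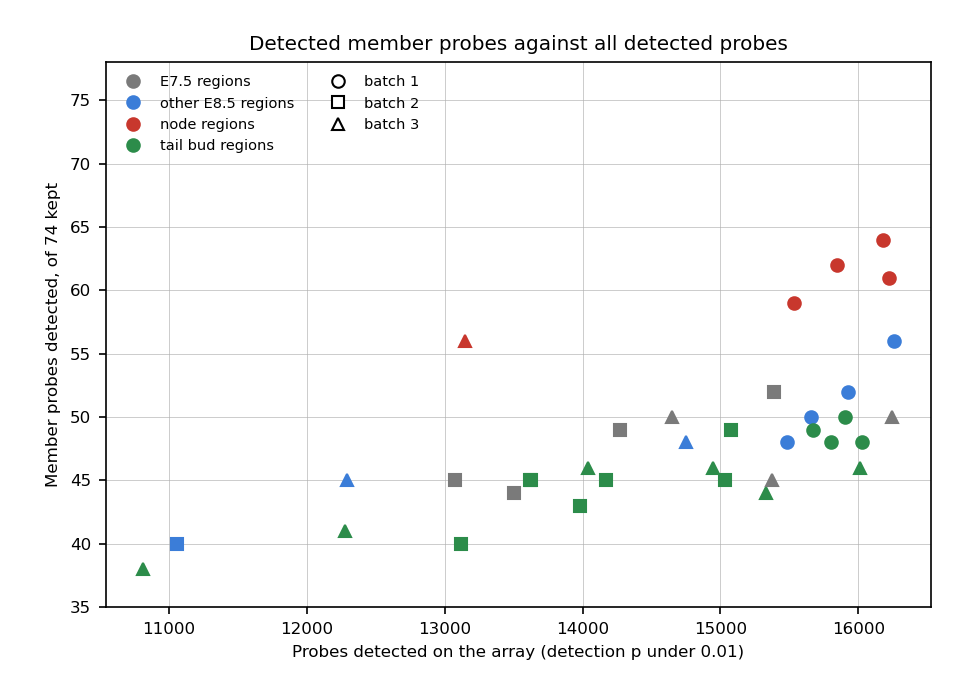
Member probes detected of 74 (vertical axis) against all probes detected (horizontal axis), 1 point per array, with colour for the group class and shape for the batch. Node arrays had 56 to 64 member probes detected, including up to 6 kept through node arrays only, and the tail bud arrays 38 to 50.

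In the comparison of node with other E8.5 regions, 17 of 74 member probes (11 genes by their brightest probe) were called higher (the thresholds being 0.05 for the adjusted p and 1.5 for the fold). Over all 21712 probes, 3.54% were called higher. No member probe was called lower by limma (29 members had an unadjusted p under 0.05 in either direction), against 1.05% of all probes. The median log2 difference was 0.21 over the member probes and -0.04 over all probes. These are bulk pools, in which fewer cells of a type and less RNA per cell cannot be told apart.

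Against the tail bud, 15 of 74 member probes (11 genes) were called higher in the node regions, where 5.15% of all probes were. None was called lower by limma (27 members had an unadjusted p under 0.05 in either direction), where 4.6% of all probes were. The median log2 difference was 0.29 over the member probes and -0.03 over all probes. Across alternatives to this fit the count was less steady: 27 with no batch term, 25 with BeadChip as a block, 25 within batch 1 (where the tail bud is of E10.5 only) and 23 after removal of batch means. In 6 of 12 settings 1 to 4 members were called lower. The shares of all probes called under these settings are not given here. A change in the members can therefore not be told from a change in calling over all probes. Both comparisons use the same 5 node arrays.

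Counts over kept members need a caution. For 6 genes (Dnahc2, Dnahc11, Dnali1, Ift57, Spag6 and Spag8), 1 probe passed the detection filter only through node arrays, so that it had to differ, and 5 of these 6 probes were called. With no filter, 16 of the 115 matched probes were called higher in the node than in the other E8.5 regions, and 16 than in the tail bud, beside 1.62% and 3.1% of all 45281 probes. A further 31 member probes (24 genes) were detected on all 36 arrays.

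**Figure D2:**
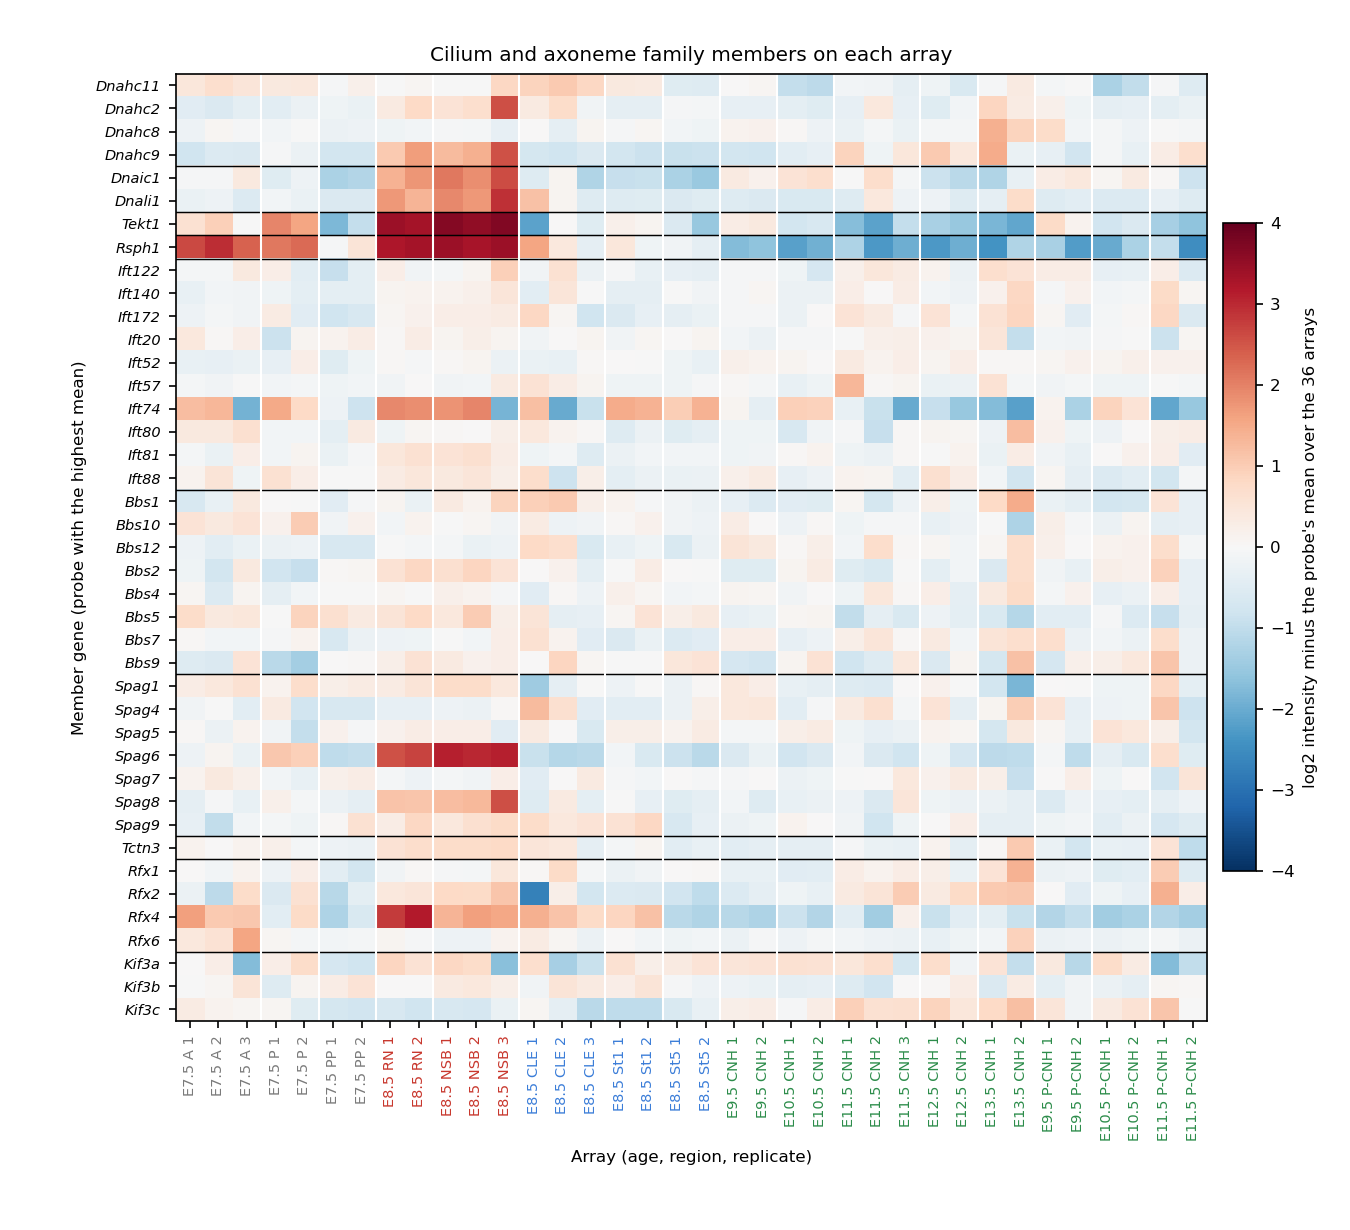
Log2 intensity of each of the 41 member genes (its brightest probe, vertical axis) minus the mean of that probe over the 36 arrays, shown by colour for each array (horizontal axis). Black lines part the families, and Tekt1 (10.09 to 10.47 on the node arrays), Rsph1 (10.49 to 10.70) and Spag6 (8.19 to 8.77) are red on each RN and NSB array.

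By family, 9 of 12 probes for axonemal dyneins, tektins and the spoke head were called higher in the node than in the other E8.5 regions, beside 3.54% of all probes, and 10 than in the tail bud, beside 5.15%. Both counts include 3 probes (for Dnahc2, Dnali1 and Dnahc11) that passed the filter only through node arrays and had to differ, so they are a description. Out of 40 probes for IFT, Bbs, tectonic and kinesin-II genes, 2 were called higher than in the other E8.5 regions (median 0.15), again beside 3.54%. None of those 40 was called by limma against the tail bud (10 had an unadjusted p under 0.05), beside 5.15%, with a median of 0.18. Whether the family groups differ from each other was not tested.

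Tekt1, a filament protein that lines the walls of axonemal microtubules, was among the members with the largest differences. It measured 10.44, 10.30 and 10.47 on NSB replicates 1 to 3 and 10.20 and 10.09 on RN replicates 1 and 2 (log2 intensity, as for all levels below). Levels ran from 4.62 to 6.97 (median 6.30) on the other E8.5 arrays, from 4.63 to 7.53 (median 5.81) on the tail bud arrays and from 4.97 to 8.72 (median 7.39) on the E7.5 arrays. Every node array was above every other array of the series. The fitted log2 difference, which is adjusted for batch and so need not equal the difference of plain means, was 4.08 ± 0.31 (SE) against the other E8.5 regions (adjusted p = 1.5e-09), where 5 of 7 arrays detected it. It was 4.34 ± 0.44 against the tail bud (adjusted p = 2.06e-07), where 8 of 17 did. Where a side was not detected on all its arrays, as here, the fold is given as a lower bound: each array of that side was set to its own lowest detected intensity if its value was lower, and plain array means were compared. On that basis Tekt1 was at least 13.48-fold and 15.15-fold higher. A second Tekt1 probe gave 4.16 and 4.69 (at least 14.23-fold and 19.23-fold). Fitted log2 differences of such probes take values below detection as measured, so that their order is not an order of folds.

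Within batch 1, where the other E8.5 regions are St1 and St5 and the tail bud is of E10.5 only, Tekt1 differed by 3.94 and 4.16. Batch 3 alone has NSB replicate 3 as its only node array, so that the spread between arrays comes from other groups and its p values carry little weight. For that batch only the log2 differences are given below: no probe was called in it against the other E8.5 regions, and 2 member probes were against the tail bud. Tekt1 had 3.93 and 4.88 there.

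Rsph1, a protein of the radial spoke head, reached 10.70, 10.55 and 10.67 on NSB replicates 1 to 3 and 10.49 and 10.60 on RN replicates 1 and 2. On the other E8.5 arrays it held 6.90 to 8.84 (median 7.13), with detection on all 7. On the tail bud arrays it lay between 4.77 and 6.31 (median 5.32) and was detected on 2 of 17. E7.5 arrays came close to the node arrays, at 7.20 to 10.22 with a median of 9.52, although none reached them. Rsph1 was higher in the node by a log2 difference of 3.22 ± 0.33 against the other E8.5 regions (9.33-fold, adjusted p = 1.99e-07). The difference from the tail bud was 5.32 ± 0.47 (at least 23.6-fold, adjusted p = 1.99e-08). Batch 1 alone gave 3.37 and 5.16 for these comparisons, and batch 3 alone gave 3.39 and 5.23.

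Axonemal dyneins are the motors that make cilia beat. Dnaic1, an intermediate chain of the outer dynein arm, measured 8.07, 7.83 and 8.57 on NSB replicates 1 to 3 and 7.35 and 7.73 on RN replicates 1 and 2. It was detected on no other E8.5 array, where values ran from 4.47 to 6.08 (median 5.04). In the tail bud it was detected on 9 of 17 arrays and ran from 4.76 to 6.66 (median 6.06). All node arrays lay above all others, and the tail bud, unlike the other E8.5 regions, held a low but detectable level on some arrays.

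Dnaic1 was at least 3.69-fold higher in the node than in the other E8.5 regions (log2 difference 2.91 ± 0.23, adjusted p = 2.22e-09). The log2 difference from the tail bud was 2.25 ± 0.32 (at least 3.14-fold, adjusted p = 2.83e-05). In batch 1 alone the values were 2.93 and 1.36, and batch 3 alone 3.14 and 2.89. A second, dimmer probe was called in both, but with bounds of only 1.297-fold and 1.286-fold, with 0 of the 7 E8.5 arrays outside the node and 3 of 17 tail bud arrays detecting it.

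Of the 9 members with a promoter that were called higher than in the other E8.5 regions, only Dnaic1 holds an X-box match. The called members Rsph1 and Ift81 had no promoter to search. The Dnaic1 promoter is printed for its match. The sequence, from RefSeq (GRCm38.p6), covers chr4:41569544-41569843 on the + strand, that is 250 bases before the transcription start to 50 after it, with the X-box match in capitals, beginning at -19 from the start.
Dnaic1: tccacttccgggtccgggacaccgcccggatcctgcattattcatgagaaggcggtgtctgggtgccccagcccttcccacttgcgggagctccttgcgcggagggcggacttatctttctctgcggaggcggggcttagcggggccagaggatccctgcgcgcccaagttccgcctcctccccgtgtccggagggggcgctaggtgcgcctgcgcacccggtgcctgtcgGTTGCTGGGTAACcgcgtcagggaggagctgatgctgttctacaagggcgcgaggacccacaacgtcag

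Dnali1, a light intermediate chain of inner dynein arms, measured 7.02, 6.82 and 8.01 on NSB replicates 1 to 3 and 6.81 and 6.44 on RN replicates 1 and 2. No array outside the node regions detected this, its brightest probe: values were 4.496 to 6.24 (median 4.59) in the other E8.5 regions and 4.46 to 5.83 (median 4.58) in the tail bud. The probe passed the detection filter through node arrays only, so it had to differ, and its values are a description. Dnali1 was at least 1.99-fold higher than in the other E8.5 regions (log2 difference 2.34 ± 0.23). Its bound relative to the tail bud was 2.01-fold (log2 difference 2.95 ± 0.34). Batch 1 alone gave 2.21 and 2.26, and batch 3 alone 3.13 and 3.08. A second Dnali1 probe, detected on no node array and on 1 of 17 tail bud arrays, was not called in either comparison (log2 differences 0.20 and 0.01).

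Heavy chains carry the motor itself. Dnahc9, of the outer arm, measured 6.66, 6.84 and 7.96 on NSB replicates 1 to 3 and 6.45 and 7.09 on RN replicates 1 and 2. It was undetected on the 7 other E8.5 arrays (4.52 to 4.82, median 4.604) and detected on 6 of 17 tail bud arrays (4.603 to 6.91, median 5.24). Node arrays lay above all other E8.5 arrays but overlapped the tail bud arrays. The difference from the other E8.5 regions was at least 1.96-fold (log2 2.58 ± 0.23, adjusted p = 1.74e-08). From the tail bud it was at least 1.81-fold (log2 2.35 ± 0.32, adjusted p = 1.69e-05). Within batch 1 they were 2.18 and 1.63, and batch 3 alone 3.25 and 2.48.

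Dnahc2, of the inner arm, was barely above background, at 5.63, 5.76 and 7.68 on NSB replicates 1 to 3 and 5.44 and 5.89 on RN replicates 1 and 2. It was detected on 3 of these arrays and on none elsewhere, with 4.72 to 5.84 (median 5.03) in the other E8.5 regions and 4.59 to 5.95 (median 4.78) in the tail bud. Only NSB replicate 3 stood clear of the other groups. This probe, too, was kept through node arrays only and had to differ. Its log2 differences of 1.30 ± 0.17 and 2.27 ± 0.24 correspond to bounds of only 1.04-fold and 1.05-fold. In batch 1 alone they were 0.80 and 0.98, and in batch 3 alone 2.28 and 2.70. With a normexp offset of 100 the first difference was under the fold threshold (0.566).

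Dnahc11, the outer arm heavy chain mutated in the iv mouse, whose left-right placement is random, was bright on all arrays by 1 probe only. Its brightest probe measured 10.90, 10.89 and 11.74 on NSB replicates 1 to 3 and 10.91 and 10.99 on RN replicates 1 and 2. Levels were 10.41 to 11.96 (median 11.30) in the other E8.5 regions, 9.66 to 11.28 (median 10.79) in the tail bud and 10.88 to 11.59 (median 11.36) at E7.5. The node arrays overlapped all of these. No difference from the other E8.5 regions was called (log2 0.03 ± 0.13, adjusted p = 1), and that value turned to -0.12 without the batch term. Dnahc11 was higher than in the tail bud, by 1.01 ± 0.18 (2.01-fold, adjusted p = 3.92e-04), with 1.07 in batch 1 alone, 1.00 in batch 3 alone and 0.50 without the batch term (not called). A second, dim probe, detected on 1 node array and nowhere else, was called in both comparisons, and no fold is given for it.

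The remaining heavy chain, Dnahc8, was detected on 1 tail bud array and was not called, with log2 differences of -0.09 and -0.33.

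Spag genes share a name rather than a function. Spag6, a protein of the central apparatus of motile axonemes, measured 8.75, 8.67 and 8.77 on NSB replicates 1 to 3 and 8.19 and 8.36 on RN replicates 1 and 2. It was undetected on all other E8.5 arrays (4.51 to 5.55, median 4.76) and on all tail bud arrays (4.595 to 6.32, median 5.07). At E7.5 it was detected on 2 of 7 arrays, both of region P (range 4.63 to 6.71, median 5.44). Every node array was above every other array.

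Spag6 was at least 5.74-fold higher in the node than in the other E8.5 regions (log2 difference 3.69 ± 0.18, adjusted p = 1.03e-12). The bound against the tail bud was 5.80-fold (log2 difference 3.53 ± 0.26, adjusted p = 1.2e-09). Batch 1 alone gave 3.51 and 3.42, and batch 3 alone 4.23 and 3.80. Its second probe was detected on node arrays only and so had to differ, with bounds of only 1.15-fold and 1.16-fold.

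Spag8, first described in sperm, measured 6.25, 6.32 and 7.61 on NSB replicates 1 to 3 and 6.14 and 6.14 on RN replicates 1 and 2. Elsewhere it was undetected, at 4.51 to 5.39 (median 4.67) in the other E8.5 regions and 4.43 to 5.51 (median 4.77) in the tail bud. The probe was dim and passed the detection filter through node arrays only, so it had to differ. As a description, the differences were at least 1.38-fold (log2 1.87 ± 0.17) and at least 1.40-fold (log2 2.36 ± 0.24). Fits of batch 1 alone gave 1.49 and 1.51, and batch 3 alone 2.61 and 2.71.

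Spag9, a scaffold for kinase signalling with no known part in the axoneme, measured 9.79, 10.02 and 10.13 on NSB replicates 1 to 3 and 9.66 and 10.21 on RN replicates 1 and 2. Other E8.5 arrays ran from 8.74 to 10.21 (median 9.91) and overlapped the node arrays, whereas tail bud arrays, from 8.58 to 9.63 (median 9.19), lay below them. It was not called against the other E8.5 regions (log2 0.34 ± 0.17, adjusted p = 0.5). Spag9 exceeded its tail bud level by 0.88 ± 0.24 (1.84-fold, adjusted p = 0.0204). Without RN replicate 2 that call was lost (0.74, adjusted p = 0.0875), as it was with the replicate number as a block (0.75, adjusted p = 0.105). The batch 1 value was 0.68 and that of batch 3 alone 0.95. The 4 other Spag9 probes were not called.

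Spag1, which takes part in the assembly of dynein arms, was above every other E8.5 array on all node arrays (6.90 to 7.31 against 5.14 to 6.63), yet its brightest probe was not called (log2 0.73 ± 0.24, adjusted p = 0.112). A dimmer Spag1 probe, detected on 2 of 7 other E8.5 arrays, was called higher than there (0.94, at least 1.284-fold, adjusted p = 0.0332). Spag4 (-0.15 and -0.01), the spindle protein Spag5 (-0.12 and -0.30) and Spag7 were not called. Spag7, the brightest of the family, measured 11.35, 11.28 and 11.69 on NSB replicates 1 to 3 and 11.34 and 11.23 on RN replicates 1 and 2. That lay inside the range of the other E8.5 arrays (10.96 to 11.77, median 11.39) and of the tail bud arrays (10.52 to 11.95, median 11.44). Its log2 differences were 0.03 and 0.15, and both turned below 0 under some alternatives.

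**Figure D3:**
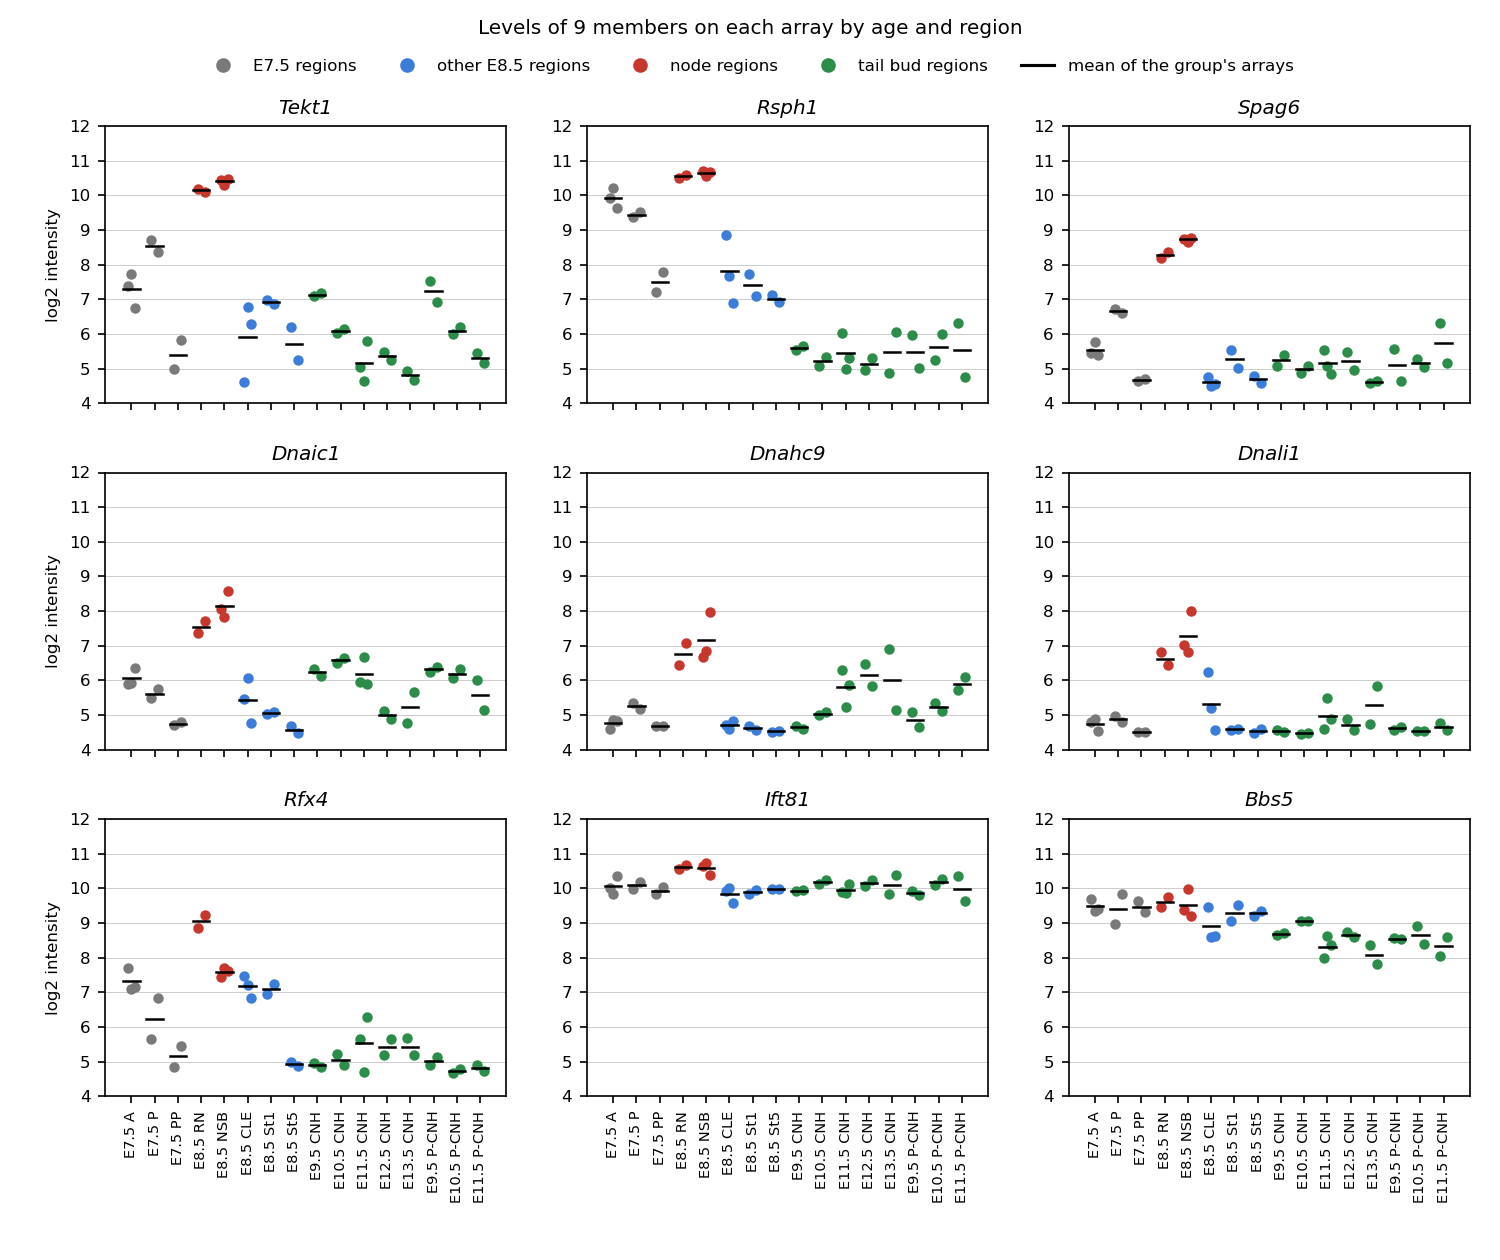
Log2 intensity (vertical axis) of 9 member genes in each of the 16 groups (horizontal axis), with 1 dot per array, coloured by group class, and a black line at the group mean. Tekt1, Rsph1, Spag6, Dnaic1 and Dnali1 are higher on each RN and NSB array than on any other E8.5 or tail bud array, whereas for Dnahc9 the lowest node array (6.45) is below the highest tail bud array (6.91).

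RFX factors bind the X-box of ciliary genes. Rfx4, known mostly from the neural tube, measured 7.44, 7.71 and 7.63 on NSB replicates 1 to 3 and 8.87 and 9.23 on RN replicates 1 and 2. Values in the other E8.5 regions were 4.86 to 7.48 (median 6.94), detected on 5 of 7 arrays. The tail bud held 4.68 to 6.28 (median 4.95), detected on 2 of 17, and E7.5 held 4.83 to 7.70 (median 6.82), detected on 4 of 7. NSB overlapped the other E8.5 arrays, RN did not, and both were above the tail bud.

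Rfx4 was higher in the node than in the other E8.5 regions by 1.92 ± 0.25 (at least 2.75-fold, adjusted p = 1.02e-05). The difference from the tail bud was 3.20 ± 0.36 (at least 4.40-fold, adjusted p = 1.05e-06). Batch 1 alone gave 2.31 and 3.41, and batch 3 alone, which lacks RN, gave 0.61 and 2.22. Group means at E8.5 went from 9.05 in RN through 7.59 in NSB, 7.17 in CLE and 7.09 in St1 to 4.92 in St5, where this probe was undetected. NSB, CLE and St1 were close together, with standard deviations of 0.14, 0.33 and 0.21. A second Rfx4 probe, detected on no node array, was not called (-0.07 and 0.23).

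Rfx2, an RFX factor of ciliated cells, measured 8.24, 8.21 and 8.56 on NSB replicates 1 to 3 and 7.87 and 7.91 on RN replicates 1 and 2. All other E8.5 arrays, from 4.75 to 7.68 (median 6.70), lay below them, whereas the tail bud arrays, from 6.90 to 8.86 (median 7.72), overlapped. Rfx2 was higher than in the other E8.5 regions by 1.48 ± 0.34 (at least 2.39-fold, with detection on 6 of the 7 arrays, adjusted p = 6.79e-03), with 1.35 in batch 1 alone and 1.37 in batch 3 alone. Against the tail bud the log2 difference of 0.29 ± 0.48 was not called (adjusted p = 0.825). Nor was 0.85 ± 0.37 against the E10.5 tail bud (adjusted p = 0.154), although the same difference was called when batch 1 was fitted alone.

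Rfx1 was not called (0.08 and 0.27). Its levels were 9.92, 9.89 and 10.42 on NSB replicates 1 to 3 and 9.82 and 10.01 on RN replicates 1 and 2, within the range of the other E8.5 arrays (9.74 to 10.73, median 9.97) and of the tail bud arrays (9.45 to 11.34, median 9.72). Rfx6 was detected on 1 array, of region A at E7.5, and was not called in either comparison (0.05 and 0.18).

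The transport families were detected broadly. Of 21 IFT probes, 2 were called higher in the node than in the other E8.5 regions, both for Ift81, beside 3.54% of all probes. None was against the tail bud by limma (5 had an unadjusted p under 0.05), beside 5.15%. Ift81, which binds the tubulin cargo of IFT trains, measured 10.64, 10.74 and 10.38 on NSB replicates 1 to 3 and 10.54 and 10.68 on RN replicates 1 and 2. The other E8.5 arrays ran from 9.57 to 10.01 (median 9.97), the tail bud arrays from 9.62 to 10.38 (median 10.07) and the E7.5 arrays from 9.84 to 10.35 (median 10.01). Each node array lay above all of these, though by little.

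Ift81 was higher than in the other E8.5 regions by 0.62 ± 0.14 (1.54-fold, adjusted p = 7.21e-03). Without RN replicate 2 the call was lost (0.59, adjusted p = 0.0557), and without CLE replicate 3 the difference fell under the fold threshold (0.56). Batch 1 alone gave 0.71, and batch 3 alone 0.59. Against the tail bud 0.30 ± 0.20 was not called (adjusted p = 0.472). Of its dimmer probes, 1 was called against the other E8.5 regions (0.64, adjusted p = 0.0156) and 1 was not (0.60, adjusted p = 0.0968).

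Ift88, a core IFT protein needed for cilia at the node, came to 8.83, 8.93 and 8.67 on NSB replicates 1 to 3 and 8.76 and 8.89 on RN replicates 1 and 2, with 7.62 to 9.14 (median 8.197) on the other E8.5 arrays. The groups overlapped. Its log2 difference of 0.58 ± 0.17 (adjusted p = 0.045) was just under the fold threshold, and against the tail bud 0.61 ± 0.24 missed the p threshold (adjusted p = 0.128).

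Ift20, the brightest IFT member, measured 11.67, 11.80 and 11.67 on NSB replicates 1 to 3 and 11.60 and 11.87 on RN replicates 1 and 2. The tail bud arrays ran from 10.60 to 12.06 (median 11.53) around them, and the log2 differences of 0.15 and 0.26 were not called. None of Ift52, Ift57, Ift74, Ift80, Ift122, Ift140 and Ift172 was called in either comparison, with log2 differences from 0.05 (Ift52) to 0.51 (Ift172) against the other E8.5 regions. For the tail bud comparison these 7 ran from -0.37 (Ift52) to 0.67 (Ift122). Ift57 was detected on 1 node array by a single probe, and Ift74 was low on NSB replicate 3 (4.85) but 8.51 to 8.66 on the other node arrays.

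Bbs genes encode the BBSome coat and proteins that help it form. None of 9 Bbs probes was called by limma in either comparison (1 had an unadjusted p under 0.05 in each). Over all probes 3.54% and 5.15% were called higher, and for so few probes no call is near those shares. Bbs5, a BBSome subunit that binds membrane lipids and the brightest of the family, measured 9.38, 9.97 and 9.20 on NSB replicates 1 to 3 and 9.47 and 9.76 on RN replicates 1 and 2. It overlapped the other E8.5 arrays (8.61 to 9.51, median 9.21) but lay above all tail bud arrays (7.82 to 9.07, median 8.58). The difference of 0.86 ± 0.28 from the tail bud missed the threshold (adjusted p = 0.0569), and 0.37 from the other E8.5 regions was not called. The former was called in 4 of 12 other settings, among them batch 1 alone (0.79, adjusted p = 2.01e-03) but not batch 3 alone (0.88), and in 5 of 35 fits without 1 array. Bbs2 was above every other E8.5 array on all node arrays (8.41 to 8.73 against 7.48 to 8.17), with 0.58 ± 0.22 and an adjusted p = 0.198. The other 6 genes, Bbs1, Bbs4, Bbs7, Bbs9, Bbs10 and Bbs12, had log2 differences from -0.05 to 0.30 against the other E8.5 regions and from -0.29 to 0.63 against the tail bud.

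Tctn3, a tectonic of the transition zone, measured 10.09, 10.11 and 10.17 on NSB replicates 1 to 3 and 9.93 and 10.08 on RN replicates 1 and 2. Every one exceeded the other E8.5 arrays (8.95 to 9.86, median 9.27), and they overlapped the tail bud arrays (8.33 to 10.41, median 9.06). The differences of 0.78 ± 0.23 (adjusted p = 0.0597) and 0.98 ± 0.33 (adjusted p = 0.0698) were not called, but both were near the threshold and depended on the setting. The first was called in 9 of 12 other settings and in 6 of 35 fits without 1 array, the second in 6 of 12 and 4 of 35. Batch 1 alone called both (0.86, adjusted p = 9.75e-06, and 1.02, adjusted p = 8.84e-07), and batch 3 alone gave 0.78 and 0.93. None of 3 Tctn3 probes was called by limma, though 2 had an unadjusted p under 0.05 against the other E8.5 regions and 1 against the tail bud. With 3.54% and 5.15% of all probes called higher, no call among so few is near those shares.

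Kinesin-II probes (7) were not called by limma in either comparison, with 1 at an unadjusted p under 0.05 against the other E8.5 regions and 3 against the tail bud. Over all probes 3.54% and 5.15% were called higher and 1.05% and 4.6% lower, and for so few probes no call is near those shares. Kif3a, a motor subunit without which node cilia do not form, measured 10.09, 10.01 and 7.58 on NSB replicates 1 to 3 and 10.13 and 9.83 on RN replicates 1 and 2. NSB replicate 3 was low, as were CLE replicates 2 and 3 of the same batch (7.94 and 8.36). The other E8.5 arrays ran from 7.94 to 9.94 (median 9.63) and the tail bud arrays from 7.52 to 10.01 (median 9.73). Its log2 differences of -0.02 and -0.53 changed sign under several alternatives (0.32 and 0.18 in batch 1 alone), and without the 4 arrays with fewest detected probes the second was called lower (-0.62). A second Kif3a probe gave 0.52 (adjusted p = 0.0319, under the fold threshold) and 0.31.

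Kif3c, a partner of Kif3a known mainly from neurons, went the other way against the tail bud. On NSB replicates 1 to 3 it measured 7.99, 7.95 and 8.36, and on RN replicates 1 and 2 it measured 7.98 and 7.84. The other E8.5 arrays, from 7.53 to 8.70 (median 8.00), overlapped these, whereas all tail bud arrays, from 8.496 to 9.82 (median 9.12), lay above. The log2 difference of -0.77 ± 0.29 from the tail bud was not called (adjusted p = 0.104), nor was 0.13 from the other E8.5 regions. Kif3b had -0.07 and 0.05.

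**Figure D4:**
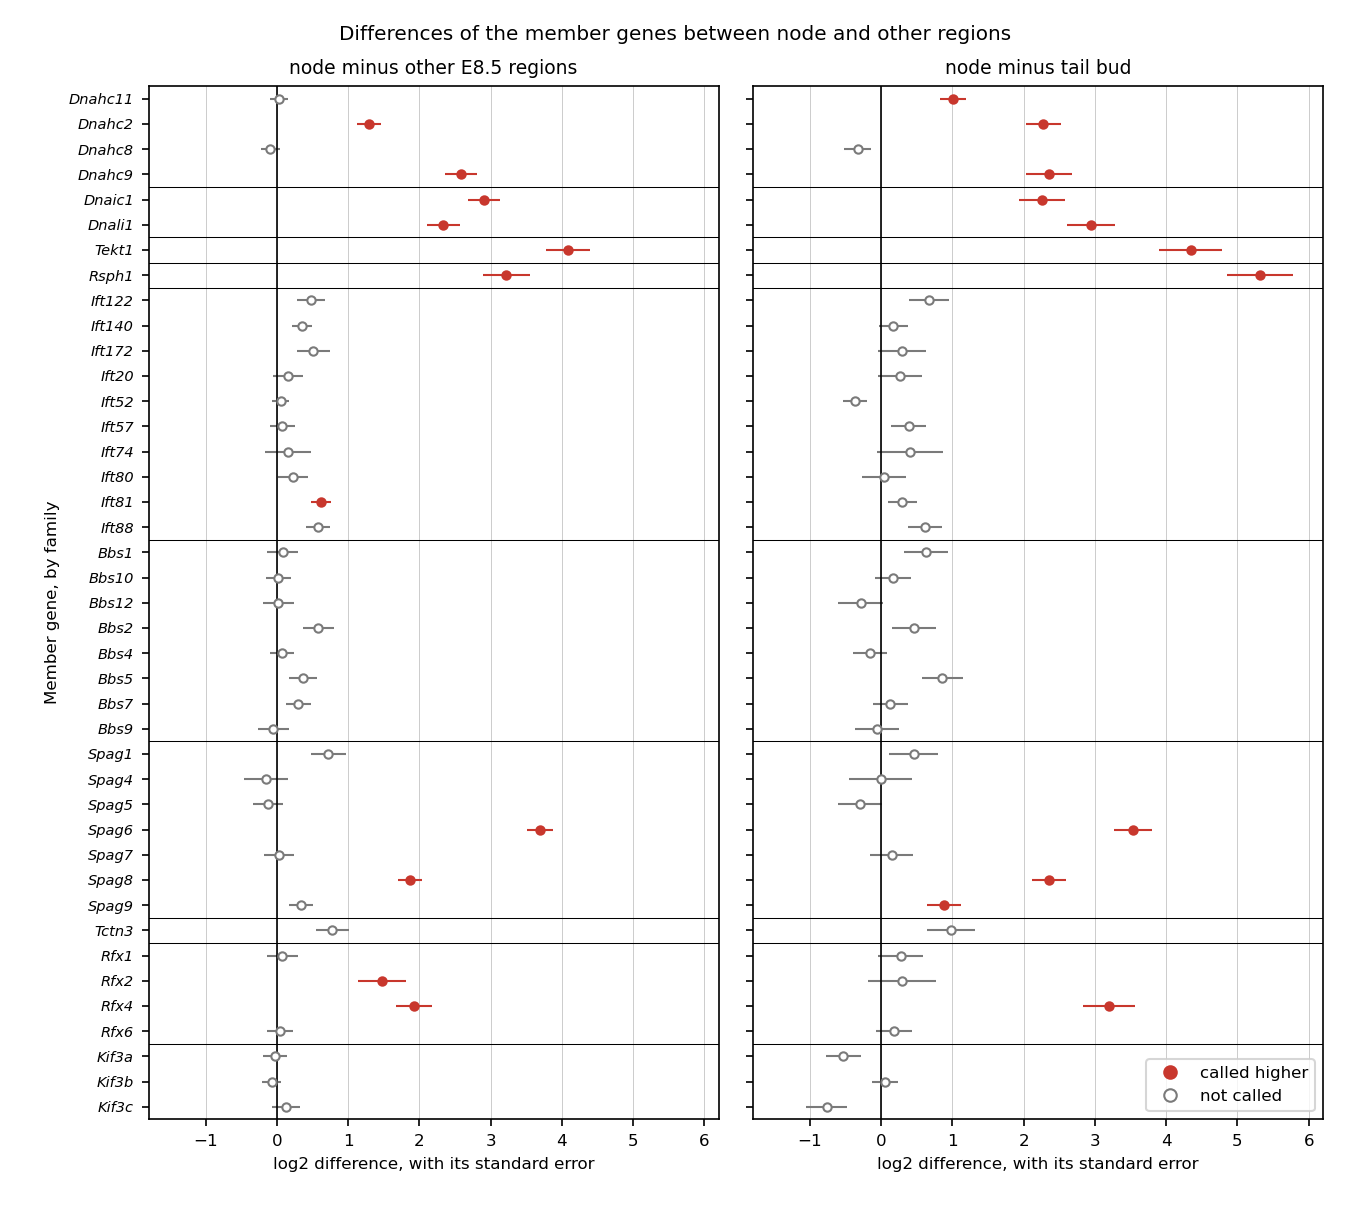
Fitted log2 difference with its standard error (horizontal axis) for the brightest probe of each of 41 member genes (vertical axis), for node minus other E8.5 regions and node minus tail bud. Filled red points are called higher (11 genes in each), open grey points are not called.

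Narrower comparisons kept to groups that share batch 1 with most node arrays. Against St1 and St5 alone, 18 of 74 member probes (12 genes) were higher in the node, where 3.23% of all probes were. None was lower by limma (29 had an unadjusted p under 0.05), where 1.42% of all probes were. The 18 include probes that passed the filter only through node arrays and had to differ, so the count is a description. With no filter, 16 of 115 matched probes were higher, beside 1.48% of all 45281. Rsph1, detected on all 4 of these arrays, was 10.3-fold higher (log2 3.37). For others the folds are bounds: at least 14.78-fold for Tekt1 (detected on 3 of the 4), 7.51-fold for Spag6 and 4.83-fold for Dnaic1 (both on none) and 3.48-fold for Rfx4 (on 2). Ift88 was called here (0.70 ± 0.19, 1.62-fold, adjusted p = 0.0278).

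Against the E10.5 tail bud alone, 22 of 74 probes (15 genes) were higher in the node, where 6.96% of all probes were. This count, too, includes probes kept through node arrays only, which had to differ, so it is a description. With no filter, 18 of 115 matched probes were higher, beside 3.06% of all 45281. Among the 22 were Tekt1, detected on all 4 of the E10.5 arrays (4.16, 17.9-fold), and Rsph1, detected on 1 (5.16, at least 29.51-fold). The brightest probes of Spag6 and Rfx4, detected on none, were also among them (at least 7.54-fold and 5.82-fold). The second Rfx4 probe, detected on 2 of the 4 and on no node array, was not called (-0.08). Ift88 (0.78), Bbs5 (0.79), Spag1 (0.83) and Tctn3 (1.02), not called against the whole tail bud, were called there. Lower were 2 of 74 probes, where 7.14% of all probes were, and both were for Kif3c: -0.98 ± 0.22 (adjusted p = 2.77e-03) and -0.78 (at least 1.388-fold, with detection on 1 node array, adjusted p = 0.0487). This count was 1 in 25 of the 36 fits that left out 1 array.

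Between the E10.5 tail bud and St1 with St5, 12 of 74 member probes had an unadjusted p under 0.05 by limma, in either direction. Over all 21712 probes, 4773 had. Higher in the tail bud were 2 of 74 probes, where 6.65% of all probes were: Dnaic1 (1.57 ± 0.25, at least 1.68-fold, adjusted p = 9.73e-05) and Kif3c (1.04 ± 0.22, 2.05-fold, adjusted p = 2.16e-03). Lower were 3, where 5.15% of all probes were: Rsph1 (-1.798, at least 2.83-fold, with detection on 1 of 4 tail bud arrays), Rfx4 (-1.11, at least 1.29-fold) and Dnahc11 (-0.996). The members' shares of 2.7% and 4.05% rest on few probes, and whether they differ from those over all probes was not tested. The comparison shares its arrays with the foregoing ones.

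Within the node, few arrays were available to compare its parts. No member probe was called between RN and NSB by limma in either direction (1 had an unadjusted p under 0.05), where 0.0737% of all probes were higher and 0.0599% lower. The 1 probe was that of Rfx4, whose RN arrays lay above all NSB arrays, with a log2 difference of 1.47 ± 0.40 (adjusted p = 0.364). With no background correction, with an offset of 100 or in batch 1 alone, 1 member probe was called higher in RN. All 5 streak markers, by contrast, were lower in RN.

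Inside the tail bud, no member was called between CNH and P-CNH at matched ages by limma, and none had an unadjusted p under 0.05, where 0.497% of all probes were higher and 0.101% lower. Noto, a notochord and node factor, was higher in the CNH by 3.26 ± 0.34 (at least 5.82-fold, adjusted p = 3.09e-06), where 1 of 6 P-CNH arrays detected it. Its 2 other probes had bounds of 4.12-fold and 2.15-fold. No member was called by limma for a change of the CNH and P-CNH contrast between ages. For E10.5 against E9.5, E11.5 against E9.5 and E11.5 against E10.5, 0, 2 and 0 members had an unadjusted p under 0.05. Of all 21712 probes only 0, 6 and 1 were called, so the lack of calls is not particular to the members.

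Over time in the CNH, calls for lower Tekt1 and Dnaic1 depended on the processing: the 3 called probes became 0 with cyclic loess normalisation, and 1 with batch means removed first or with the BeadChip as a random block. Group means of Tekt1 by its brightest probe were 7.12 at E9.5, 6.09 at E10.5, 5.16 at E11.5, 5.36 at E12.5 and 4.81 at E13.5. This probe was not detected in the CNH from E11.5 on. Its P-CNH means followed, at 7.23, 6.10 and 5.31 for E9.5, E10.5 and E11.5. The second Tekt1 probe was detected on 5 of 7 CNH arrays of E9.5 to E11.5, which include all 4 arrays of E9.5 and E10.5. Dnaic1 had means of 6.23, 6.58, 6.17, 5.00 and 5.22 at the 5 ages of the CNH. These plain means are not adjusted for batch, and since both E9.5 CNH arrays were in batch 2 and both E10.5 CNH arrays in batch 1, age and batch cannot be told apart in them. Standard deviations between the Tekt1 arrays of each age were 0.06, 0.06, 0.60, 0.16 and 0.18, and neighbouring ages were not tested against each other.

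For E12.5 and E13.5 against E9.5 and E10.5, Dnaic1 fell by 1.60 ± 0.33 on the log2 scale (at least 1.17-fold, adjusted p = 3.84e-03). Tekt1 fell by 1.57 ± 0.46 (at least 1.35-fold, adjusted p = 0.0432), though its second probe was not called (-1.44, adjusted p = 0.0857). The second Dnaic1 probe was the third call of 74, where 1.99% of all probes were lower. None was higher by limma (10 had an unadjusted p under 0.05 in either direction), where 3.69% of all probes were. The count of 3 lower probes dropped to 1 without NSB replicate 1, E9.5 CNH replicate 1, E10.5 CNH replicate 2 or E12.5 CNH replicate 1, and went to 6 without E13.5 CNH replicate 1.

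At E7.5, before the E8.5 regions were taken, some members were already present. Rsph1 was detected on all 7 arrays, with means of 9.92 in A, 9.44 in P and 7.49 in PP. Tekt1 was highest in P (8.54), against 7.29 in A and 5.40 in PP. Rfx4 had 7.31 in A, 6.24 in P and 5.15 in PP, whereas Dnahc9, Dnali1, Spag8 and Dnahc2 were detected on no E7.5 array. The means by region are plain means, not adjusted for batch. Both P arrays were in batch 2 and both PP arrays in batch 3, so region and batch cannot be told apart between P and PP.

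For A against P and PP together, 3 of 74 probes were higher, where 2.9% of all probes were: Rfx4 (1.64 ± 0.31, at least 2.28-fold with detection on 1 of the 4 P and PP arrays, adjusted p = 1.11e-03), Rsph1 (1.40 ± 0.40, 2.64-fold, adjusted p = 0.037) and Rfx6. The Rfx6 probe passed the filter through 1 A array alone, so it had to differ, and with no filter the count was 2 of 115. No member was lower by limma (11 had an unadjusted p under 0.05 in either direction), where 2.89% of all probes were. Leaving out A replicate 3 gave a count of 1, and leaving out CLE replicate 2, which enters through the batch term, gave 6.

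Genes outside the matched symbols were taken from lists of known cilium genes, chosen with earlier results in view, so that their counts are descriptions without independent support. Beside every list count below stand 3.54% of all probes called higher than in the other E8.5 regions and 5.15% than in the tail bud. Of 34 measured genes for axoneme assembly and motility (52 listed), 26 were higher in the node than in the other E8.5 regions and 22 than in the tail bud, with median log2 differences of 1.35 and 1.22. Among them were Dynlrb2, a dynein light chain of the roadblock type, Wdr16 (detected on no other E8.5 or tail bud array, with bounds of 8.81-fold and 8.92-fold) and Lrrc48 (log2 4.02, and at least 19.07-fold against the tail bud). Dynlrb2 measured 11.57, 11.47 and 11.75 on NSB replicates 1 to 3 and 11.24 and 11.35 on RN replicates 1 and 2, against 4.48 to 7.23 on the other E8.5 arrays. It was detected on 2 of those 7 (at least 33.73-fold) and on no tail bud array (at least 44.1-fold). Of the list, 11 had no probe and 7 were undetected.

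Of 15 measured transport genes with other names (19 listed), 5 were higher than in the other E8.5 regions and 3 than in the tail bud, with medians of 0.43 and 0.38. They were Ttc30b, an IFT protein (at least 4.35-fold and log2 1.32), the subunits of the retrograde IFT dynein Dync2h1 (0.80 against the other E8.5 regions) and Dync2li1 (0.78 and 1.06), Wdr34 (0.76 and 0.82) and Rabl4 (0.60 against the other E8.5 regions). Hspb11 had no probe, and Wdr35, Ttc30a2 and Kif17 were undetected.

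For the transition zone and ciliary membrane, none of 18 measured genes (25 listed) was called against the other E8.5 regions by limma (5 had an unadjusted p under 0.05). In the tail bud comparison 1 was, B9d1 (0.96, adjusted p = 0.0395). The medians were 0.21 and 0.07. Tmem216, Tmem231, Tmem237 and Cep290 had no probe, and Lztfl1, Tmem67 and Ofd1 were undetected.

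Among regulators of ciliary genes, 4 of 8 measured (11 listed) were higher than in the other E8.5 regions and 5 than in the tail bud, with medians of 1.46 and 1.47. Among those called in both were Noto (at least 5.98-fold and 2.27-fold), the kinase Stk36 (at least 5.68-fold and log2 1.93) and the cyclin Ccno (at least 3.32-fold and 5.67-fold). Dimmer Noto probes were not called against the tail bud (1.10 and -0.45). Foxj1, the main activator of motile cilium genes, was dim, at 6.47, 6.35 and 8.18 on NSB replicates 1 to 3 and 6.06 and 6.10 on RN replicates 1 and 2. The other E8.5 arrays (5.17 to 7.29, median 5.71) and the tail bud arrays (4.91 to 7.02, median 6.10) overlapped these. It was not called against the other E8.5 regions (0.90 ± 0.27, adjusted p = 0.0566), and it was higher than in the tail bud by 1.30 ± 0.38 (adjusted p = 0.0304), where 10 of 17 arrays detected it and the bound was only 1.387-fold. Mcidas and Gmnc had no probe, and Trp73 was undetected.

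Left-right genes known from the node were high there: 6 of 9 measured (10 listed) were higher than in the other E8.5 regions and 6 than in the tail bud. They were Nodal (at least 19.51-fold and 26.48-fold), Lefty1 (at least 6.06-fold and 4.31-fold), Dand5 (at least 4.56-fold and 4.61-fold), Bicc1 (log2 3.02 and 1.47), Gdf1 (log2 1.89 and 2.79) and Lefty2 (at least 1.15-fold and 1.05-fold). Pkd1l1 was undetected.

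**Figure D5:**
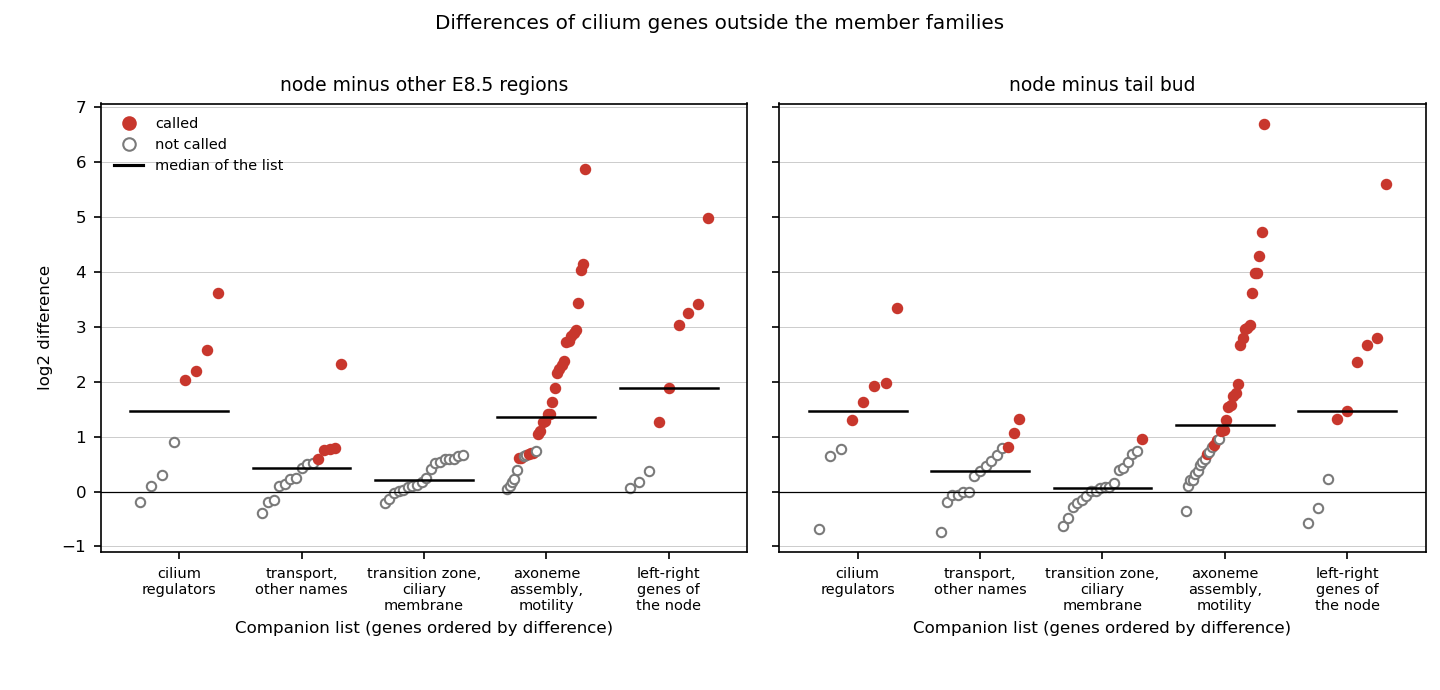
Fitted log2 difference (vertical axis) of each measured gene in the 5 lists of cilium genes outside the matched symbols (horizontal axis, genes ordered by difference). Filled points are called, open points are not, and lines are list medians, from 0.21 (transition zone) to 1.89 (left-right genes) for node minus other E8.5 regions.

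Markers of other tissues differed between the same groups. Beside each marker count here and below stand the shares of all probes. Against the other E8.5 regions 3.54% were called higher and 1.05% lower, and against the tail bud 5.15% and 4.6%. Of 5 markers listed for endoderm, 4 were higher in the node than in the other E8.5 regions and 3 than in the tail bud. The brightest, Cdx2, was not called (-0.11 and 0.38) and is also known from caudal epiblast and the tail bud, so the sum does not measure endoderm alone. Their summed intensity was 26171, 26985 and 29012 on NSB replicates 1 to 3 and 22861 and 22784 on RN replicates 1 and 2. Other E8.5 arrays had 15972 to 25209 (median 19364) and the tail bud arrays 7877 to 16283 (median 13532). The paper states that endoderm was dissected away from the CLE, which gave 3 of the 7 other E8.5 arrays. Streak markers (4 of 5) were lower in the node in both comparisons, with 11300 to 26805 (median 22509) on the other E8.5 arrays and 8921 to 34080 (median 25056) on the tail bud arrays.

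Node and notochord markers (brightest T) summed to 11219, 13916 and 12414 on NSB replicates 1 to 3 and 10159 and 12402 on RN replicates 1 and 2. The other E8.5 arrays had 2935 to 7087 (median 5711), and the tail bud arrays, at 6760 to 25161 (median 16483), overlapped the node. Of the 6, 5 were higher in the node than in the tail bud. T itself was not called (-0.80 ± 0.46, adjusted p = 0.367).

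Somite markers (Meox1, the brighter, and Tcf15; Uncx was undetected) were both higher in the node than in the other E8.5 regions and neither was called against the tail bud (1 had an unadjusted p under 0.05). They summed to 588, 487 and 977 on NSB replicates 1 to 3 and 1306 and 835 on RN replicates 1 and 2, with 115 to 260 (median 188) on the other E8.5 arrays and 342 to 1838 (median 970) in the tail bud. Of the neural markers, Sox1 and Pax6 were undetected, and 1 of 2 measured, Olig3, was higher in both comparisons. The brightest Sox2 probe was not called (0.75 and -0.33), though a second was higher than in the other E8.5 regions (1.495). With Sox2, the brighter, it summed to 351, 338 and 242 on NSB replicates 1 to 3 and 875 and 834 on RN replicates 1 and 2, against 74.8 to 280 (median 194) on the other E8.5 arrays and 124 to 589 (median 286) in the tail bud.

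Visceral endoderm markers (7, brightest Ttr) were not called against the other E8.5 regions by limma (1 had an unadjusted p under 0.05), and 3 were higher than in the tail bud. They summed to 1187, 702 and 1341 on NSB replicates 1 to 3 and 2675 and 1981 on RN replicates 1 and 2, with 281 to 3077 (median 932) on the other E8.5 arrays and 213 to 511 (median 266) in the tail bud. Blood markers (5, brightest Hbb-y) had 2 higher than in the other E8.5 regions and 2 lower than in the tail bud. Their sums were 1701, 1049 and 935 on NSB replicates 1 to 3 and 5785 and 3055 on RN replicates 1 and 2, with 150 to 2652 (median 532) on the other E8.5 arrays and 4039 to 43050 (median 28047) in the tail bud.

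Surface ectoderm markers (5, brightest Cldn4) had 1 lower than in the other E8.5 regions, Grhl3, and 2 lower than in the tail bud, Grhl3 and Trp63, and Trp63, Grhl3, Krt14 and Krt15 were undetected on all node arrays. They summed to 695, 583 and 1079 on NSB replicates 1 to 3 and 508 and 344 on RN replicates 1 and 2, against 525 to 885 (median 605) on the other E8.5 arrays and 279 to 4261 (median 662) in the tail bud. The part of all these tissues in the member differences was not tested.

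Promoters were searched for what the symbols did not use. Of the 41 members, 37 matched RefSeq (GRCm38.p6) by symbol and 4 through an older symbol, and 36 had a promoter of 250 bases before to 50 after the start. An X-box, searched on both strands by its known form, was in 4 of 36 members (11.1%) and in 1.75% of 27025 genes with a promoter. The letters GTTGCC on either strand were in 16 of 36 (44.4%) and in 14.1% of all genes. They can form part of an X-box match, as in Ift57, so the searches overlap, but the Dnaic1 match does not hold them. TGTTTAC, a forkhead core, was in none of 36 on either strand and in 4.05% of all genes.

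Shares are given apart for members called higher than in the other E8.5 regions and for the rest, and their difference was not tested. The called members include Dnahc2, Dnali1 and Spag8, whose probes passed the detection filter through node arrays only and had to differ. Of these, only Spag8 holds GTTGCC, and no X-box was matched in them. An X-box was in 1 of 9 called members (11.1%) and 3 of 27 not called (11.1%), and GTTGCC in 4 of 9 (44.4%) and 12 of 27 (44.4%). A match is a description of the sequence, and whether any factor binds there was not measured.

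Further promoters are shown to let the letters be seen, chosen after the values were seen: Tekt1, Spag6 and Spag8 as called members with GTTGCC, and Ift57 as a member that was not called yet holds X-box matches. Capitals mark GTTGCC or its reverse complement GGCAAC in the first 3, and the X-box matches in Ift57. They cover chr11:72361833-72362132 (- strand) for Tekt1, chr2:18698772-18699071 (+) for Spag6, chr4:43653545-43653844 (-) for Spag8 and chr16:49699044-49699343 (+) for Ift57.
Tekt1: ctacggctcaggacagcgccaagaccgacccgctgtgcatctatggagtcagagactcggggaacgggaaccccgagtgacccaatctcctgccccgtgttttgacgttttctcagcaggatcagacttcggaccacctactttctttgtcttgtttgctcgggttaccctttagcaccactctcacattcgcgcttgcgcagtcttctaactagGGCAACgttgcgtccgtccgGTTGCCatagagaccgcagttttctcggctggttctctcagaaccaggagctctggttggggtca
Spag6: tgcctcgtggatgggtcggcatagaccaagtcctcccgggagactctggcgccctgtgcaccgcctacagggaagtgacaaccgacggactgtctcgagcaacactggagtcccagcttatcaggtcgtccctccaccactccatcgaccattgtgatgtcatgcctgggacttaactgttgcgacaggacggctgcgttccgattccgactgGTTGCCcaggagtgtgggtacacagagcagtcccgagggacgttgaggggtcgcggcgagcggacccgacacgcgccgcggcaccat
Spag8: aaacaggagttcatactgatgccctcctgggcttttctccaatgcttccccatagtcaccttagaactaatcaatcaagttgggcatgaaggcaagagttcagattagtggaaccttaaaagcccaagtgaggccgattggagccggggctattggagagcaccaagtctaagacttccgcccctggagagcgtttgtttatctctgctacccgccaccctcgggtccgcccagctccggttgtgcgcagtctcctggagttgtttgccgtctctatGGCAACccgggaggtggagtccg
Ift57: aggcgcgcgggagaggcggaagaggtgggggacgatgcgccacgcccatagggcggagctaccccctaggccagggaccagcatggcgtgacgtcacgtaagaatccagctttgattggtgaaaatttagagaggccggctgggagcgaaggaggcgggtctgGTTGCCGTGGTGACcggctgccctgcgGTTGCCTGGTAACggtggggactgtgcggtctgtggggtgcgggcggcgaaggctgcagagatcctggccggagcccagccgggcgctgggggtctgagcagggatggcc
Relative to the start the matches begin at -35 and -15 in Tekt1 (the printed 1 of its 2 promoters), -37 in Spag6, 28 in Spag8, and -87 and -60 in Ift57.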

How the data were processed

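The authors deposited probe intensity values that were not normalized, exported from MouseWG-6 v2.0 BeadChips after TotalPrep labelling. Each has a detection p-value, as deposited, from the same export. Background was corrected by normexp with the deposited detection p-values and an offset of 16, arrays were quantile normalized, and values were put on the log2 scale (neqc in limma 3.58.1, R 4.3.3).

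Probes were kept where the detection p was under 0.01 on at least 1 array, which left 21712 of 45281. A linear model of 16 groups with batch as a term (18 residual degrees of freedom) was fitted by limma, with moderated t tests. All p values are from limma, and adjusted p is Benjamini-Hochberg over the 21712 probes. A call needs an adjusted p of 0.05 or less with a 1.5-fold difference.

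Counts are over probes, and a gene is named by its brightest probe. Named are members called in either main comparison, up to 25 each, the brightest member per family, up to 5 called members elsewhere, up to 6 called genes per list, Foxj1 and Noto. Other members and genes were named after their values were seen. Members and lists were chosen with earlier results of these data known. The alternatives were 12 settings besides leaving out each of the 36 arrays. Promoters came from RefSeq on GRCm38.p6, searched with Python 3.11.15 and NumPy 2.4.6, and plots were drawn with matplotlib 3.10.9. Replicates are pools, so their spread includes differences between pools, and 2 or 3 arrays per group limit the precision. The values of 1 listed gene are not reported here.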

Additional observations from a re-analysis of the deposited data

How the results depend on the processing

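The 17 member probes called higher in node than other E8.5 regions became 14 (without RN replicate 2) to 20 when 1 array was left out, and the 15 against the tail bud became 13 to 17. Batch 3 alone, with 1 node array, gave 0 and 2. Against the tail bud, 27 were higher with no batch term, 23 with batch means removed before the fit, 25 with the BeadChip as a random block and 25 in batch 1 alone. Lower there were 1 with cyclic loess normalisation, 2 with no batch term, 2 with batch means removed, 2 with the BeadChip block, 2 in batch 1 alone, 4 without the arrays with fewest detected probes, and 0 to 2 when leaving out 1 array. Batch 3 alone and the removal of 4 arrays with under 13000 detected probes were chosen after the data were seen. Without NSB replicate 3, 3 of 9 contrasts (both main ones and late against early CNH) could not be estimated. The cause of these changes was not tested. Counts in this section stand without the share of all probes called under the same setting. They do not tell a change in the members from a change in calling over all probes.

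The replicate block gave 17 and 16 for the main comparisons, 5 higher for E7.5 A, 1 higher for late CNH and 1 lower for node minus E10.5 tail bud. Over all batches, 79 of 246 same-numbered pairs of arrays correlated over 0.1, as did 83 of 360 others. In batch 1, where the number is also the BeadChip, 14 of 30 did (median 0.091) against 1 of 30 others (median -0.091), values that largely mirror each other because most groups there have 2 arrays. The BeadChip block had a consensus correlation of 0.483.

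For E10.5 tail bud minus St1 and St5, the 2 higher became 1 at offset 100, and 4 under cyclic loess, in batch 1 alone and without the fewest-detected arrays. For E7.5 A, the 3 higher became 6 with cyclic loess, 0 in batch 3 alone, 8 without the fewest-detected arrays (1 lower), and 1 to 6 when leaving out 1 array. RN minus NSB gained 1 higher with no background correction, with an offset of 100 and in batch 1 alone. Late CNH gained 1 higher with cyclic loess, 5 with no batch term, 2 with batch means removed, 1 with no filter, 3 without the fewest-detected arrays and 0 to 2 when leaving out 1 array. Its 3 lower became 0 with cyclic loess, 1 with batch means removed, 1 with the BeadChip block and 1 to 6 when leaving out 1 array. The 2 lower in node minus E10.5 tail bud became 1 with no background correction, an offset of 100, no batch term, the BeadChip block and no filter, and 1 to 2 when leaving out 1 array.

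Signs turned for members that were not called. Against the other E8.5 regions, Dnahc11 was -0.119 with no batch term, -0.024 with batch means removed, -0.093 with the BeadChip block and -0.119 in batch 3 alone. Kif3a was 0.019 without background correction, 0.014 at offset 100, 0.036 under cyclic loess, 0.224 with no batch term, 0.121 with batch means removed, 0.190 with the BeadChip block, 0.318 in batch 1 alone and -0.095 to 0.053 when leaving out 1 array. Rfx1 was -0.027 with the BeadChip block. Spag7 was -0.020 with no batch term, -0.045 with the replicate block, -0.080 in batch 1 alone, -0.085 without the fewest-detected arrays and -0.028 to 0.101 when leaving out 1 array. Against the tail bud, Kif3a was 0.319 with no batch term, 0.137 with the BeadChip block and 0.178 in batch 1 alone, and Spag7 was -0.037 with no batch term, -0.088 with the replicate block, -0.064 without the fewest-detected arrays and -0.027 to 0.228 when leaving out 1 array. With an offset of 100, Dnahc2 (0.566) and Ift81 (0.580) fell under the fold threshold against the other E8.5 regions.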
